A study of Bactrocera dorsalis with 3 samples.

Results

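Very long genes of the oriental fruit fly (Bactrocera dorsalis) are here the numbered gene models that span 100000 bases or more from start to end and are expressed in the early embryo. Expressed means at least 1 FPKM (fragments normalised to transcript length and sequencing depth) in at least 1 library. The rule was met by 224 genes, out of 381 numbered genes of that span and 13489 gene models in all. RNA-seq libraries had been made from embryos aged 0-1, 2-4 or 5-8 hours post-oviposition (hpo), 1 library for each age. Strain, treatment and the number of embryos pooled are not given in the labels, and all 3 groups differ by age alone as far as these say. Without replicates, differences between ages carry no p-value and describe these libraries. Shorter genes are the 7742 numbered models under 100000 bases that reached 1 FPKM at any age.

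An RNA polymerase has to copy every intron of a gene before a complete messenger RNA can be released, so a gene of large span takes longer to give its first full transcript than a compact one. In Drosophila the first nuclear divisions after fertilisation are very fast, and many of the genes transcribed earliest from the zygotic genome are short and lack introns. Embryos also inherit messenger RNA made by the mother during egg formation, for which the span of the gene sets no such limit in the egg. None of the 224 genes has an informative symbol in the RefSeq table of assembly ASM2337382v1, where 212 of them were found by number. They are therefore called by identifier, and no function can be given to any of them. The table lists 208 as protein-coding and 4 as long noncoding RNA genes.

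Reads on genes ranged from 65069185 to 74817640 per library, and 215, 222 and 224 of the very long genes had at least 1 read at 0-1 hpo, 2-4 hpo and 5-8 hpo. They took 2.06%, 1.76% and 1.56% of all reads on genes at these ages. As a check of the embryo label, the opsin gene Rh1, a marker of the adult eye, had 0 reads in all libraries. The yolk protein gene listed as VIT1 stood at 1.58, 3.02 and 1.13 FPKM. Any difference of level between embryos can come from more or fewer cells that hold a transcript as well as from more or less RNA per cell, and these cannot be told apart. Read counts allow a 95% exact interval for each fold, which covers counting error only.

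The genes are long because of what lies between their exons. Span ranged from 101238 to 490959 bases with a median of 148366, against a median of 2917 bases in shorter genes. A median of 97.1% of the span lay outside the exons, against 23.7% in shorter genes, and none of the 224 models was a single exon. Exonic length was larger as well, with a median of 4917.5 bases against 1874 in shorter genes. The genes were spread over 141 scaffolds, at most 8 on 1 scaffold, with 119 on the plus and 105 on the minus strand. At the edge of the rule, the 3 shortest members spanned 101238, 101724 and 101762 bases. The 3 longest models outside it spanned 99847, 99829 and 99687 bases. Of these, LOC105224589, at 101238 bases, stood at 4.02, 0.741 and 0.503 FPKM at 0-1 hpo, 2-4 hpo and 5-8 hpo, and 105225581, at 99847 bases, at 0.277, 0.184 and 1.09 FPKM.

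Very long genes stood at lower levels than shorter genes at every age. Their median was 8.45 FPKM at 0-1 hpo, 5.29 at 2-4 hpo and 7.34 at 5-8 hpo, against 28.5, 19.0 and 20.98 FPKM for shorter genes. Median FPKM was lower the longer the span class. At 0-1 hpo it was 13.4 for genes of 50000 to under 100000 bases and 20.7 for 20000 to under 50000. It was 24.7 for 5000 to under 20000 and 31.2 for genes under 5000 bases. FPKM divides by length, and very long genes have a larger exonic length. Without a length term their medians were 39.1, 21.5 and 33.5 RPM (reads normalised to depth alone), against 52.2, 35.2 and 40.3 RPM in shorter genes, a smaller gap. In the same 4 classes, longest first, median RPM at 0-1 hpo was 51.1, 72.6, 81.5 and 46.3. The order by span therefore did not hold on RPM. At 5-8 hpo genes under 5000 bases had a median of 35.7 RPM, close to that of very long genes. Shorter genes whose exonic length lay between 3418.5 and 6990.75 bases, the quartiles of the very long genes, had medians of 25.9, 17.5 and 20.8 FPKM. On RPM their medians were 117, 80.7 and 92.3, against 42.1, 23.2 and 40.9 in very long genes within the same quartiles. The smaller gap on RPM was thus one between sets of unlike exonic length, and was not seen at like length. The share of models that reached 1 FPKM at all was 58.8% among those of 100000 bases or more and 60.8% among shorter ones.

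**Figure D1:**
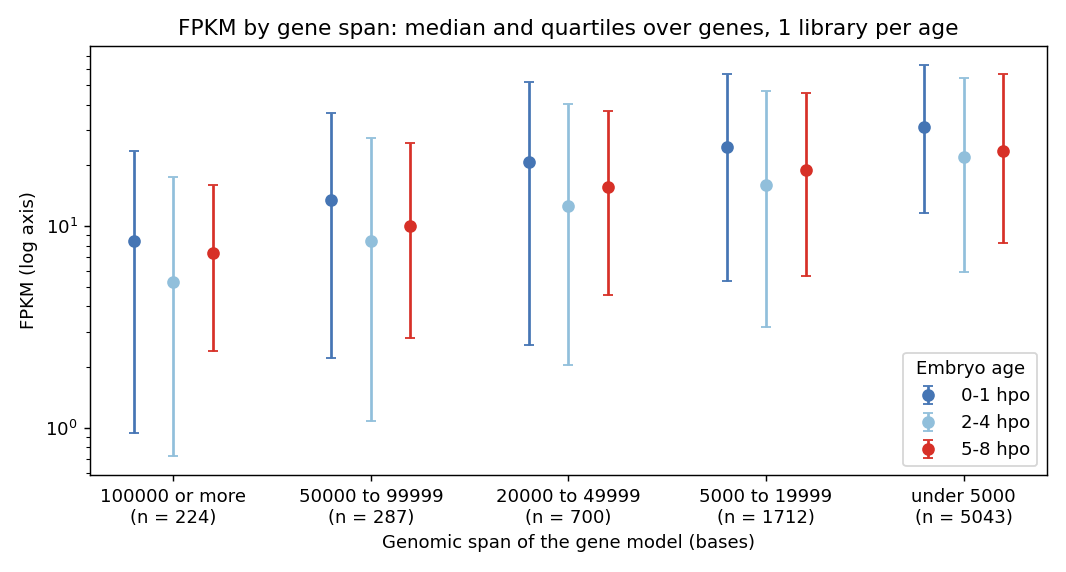
FPKM (vertical log axis) in 5 classes of gene span, longest on the left, at 0-1 hpo, 2-4 hpo and 5-8 hpo; points are medians and bars the quartiles over the genes of a class. The medians of the very long genes, 8.45, 5.29 and 7.34 FPKM, lie below those of each shorter class at the same age.

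Within the very long genes a few transcripts were abundant. LOC105223795, on scaffold NW_011876288.1, plus strand, 35507 to 157377, stood at 435, 160 and 7.59 FPKM at 0-1 hpo, 2-4 hpo and 5-8 hpo and was the most abundant of them in newly laid eggs. LOC105230932, on NW_011876392.1, plus strand, 1901580 to 2082540, was high at all ages, at 363, 428 and 278 FPKM. Its FPKM had been scaled to 0.459 times its listed exonic length, the lowest such ratio among very long genes. On the listed length all its levels would be lower. LOC105223317, on NW_011876272.1, plus strand, 76227 to 294294, stood at 297, 559 and 548 FPKM and was the highest of them at 2-4 and 5-8 hpo. A transcript of a gene spanning over 200000 bases was thus among the most abundant of this set throughout. The third place at 5-8 hpo was held by LOC105221837, at 27.2, 11.1 and 73.7 FPKM at the 3 ages, which had its lowest value at 2-4 hpo.

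Most very long genes were already represented in newly laid eggs, but fewer of them than of shorter genes, and more appeared only in the oldest embryos. At 0-1 hpo 167 of the 224, 74.6%, stood at 1 FPKM or more, against 87.1% of shorter genes and 85.6% of all 8230 genes that reached 1 FPKM at any age. First at 2-4 hpo were 5 genes, 2.23%, against 2.80% of shorter genes and 3.21% of all. First at 5-8 hpo were 52 genes, 23.2%, against 10.1% of shorter genes and 11.2% of all. The late share followed span, at 18.5%, 14.6%, 12.0% and 8.29% in the classes from 50000 to under 100000 bases down to under 5000 bases. Within the very long genes it was 19.8% for 116 genes of 100000 to under 150000 bases. It was 23.8% for 42 genes of 150000 to under 200000 and 28.8% for 66 genes of 200000 or more. These shares rest on only 23, 10 and 19 late genes. Of all numbered genes in the same classes, 55.5%, 50% and 75% reached 1 FPKM, so the classes also differ in that. The share at 2-4 hpo did not follow span, and lay between 1.74% and 3.00% in the 4 shorter classes.

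**Figure D2:**
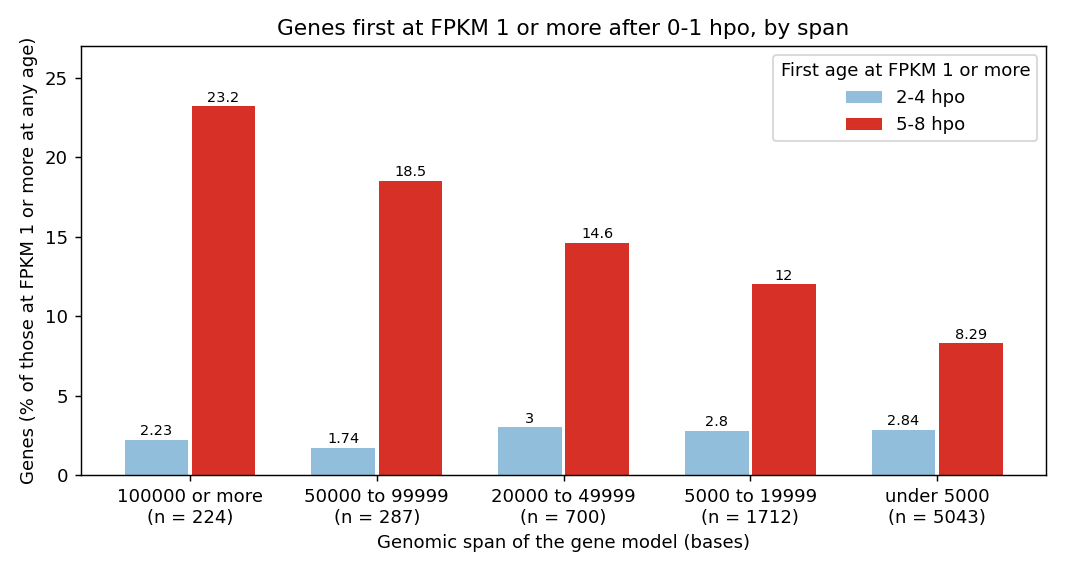
Percent of genes (vertical axis, of those at 1 FPKM or more at any age) that first reached 1 FPKM at 2-4 hpo or at 5-8 hpo, in 5 classes of gene span with the longest on the left. The bar for 5-8 hpo is 23.2% in the very long genes and 8.29% in genes under 5000 bases, while the bars for 2-4 hpo stay between 1.74% and 3.00%.

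As very long genes stood lower, the shares were also set out by each gene's highest FPKM over the ages, a grouping added after the data were seen. Among genes whose highest value was 1 to under 5 FPKM, 48.0% of 50 very long genes and 48.5% of 936 shorter genes were first at 5-8 hpo. Between 5 and 20 FPKM the shares were 26.2% of 84 very long genes and 15.8% of 1427 shorter genes. At 20 FPKM or more they were 6.67% of 90 very long genes and 1.86% of 5379 shorter genes. The larger late share of very long genes was therefore seen in the upper classes and not in the lowest. These classes do not level the sets in full. The median highest FPKM was 10.9 in very long and 12.4 in shorter genes of the middle class. In the top class it was 36.6 and 57.5, and only 6 very long genes there were late. Among shorter genes with exonic length within the quartiles of the very long genes, 8.32% of 1274 were first at 5-8 hpo. With 1 RPM as the threshold in place of 1 FPKM, which takes no account of length, the late share was 17.5% of very long genes and 7.67% of shorter genes.

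The 52 very long genes first at 5-8 hpo lay below 1 FPKM before by the grouping itself, and at the median were close to absent. Their median level was 0.0137 FPKM at 0-1 hpo, 0.0578 at 2-4 hpo and 5.23 at 5-8 hpo. Read medians were 5, 22.5 and 2171. Shorter genes first at 5-8 hpo, 779 in number, were also close to absent before, with medians of 0.0190, 0.133 and 3.64 FPKM. At 0-1 hpo 9 of the 52 had 0 reads, and 7 of these 9 had at least 1 read at 2-4 hpo. RPM was higher at 2-4 than at 0-1 hpo in 38 of the 52, 73.1%, near the 69.2% of shorter genes and 69.2% of all genes first at 5-8 hpo. By 5-8 hpo 28 of the 52 had reached 5 FPKM, 16 had reached 10 and 6 had reached 20. The counts with 0 reads and those at 10 and 20 FPKM are given for very long genes alone. Those 28 genes made up 12.5% of the very long genes, and the same course, from under 1 FPKM at 2-4 hpo and before to at least 5 in the oldest embryos, was seen in 4.2% of shorter genes and 4.53% of all. The 28 ranged from 5.01 to 43.4 FPKM at 5-8 hpo.

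**Figure D3:**
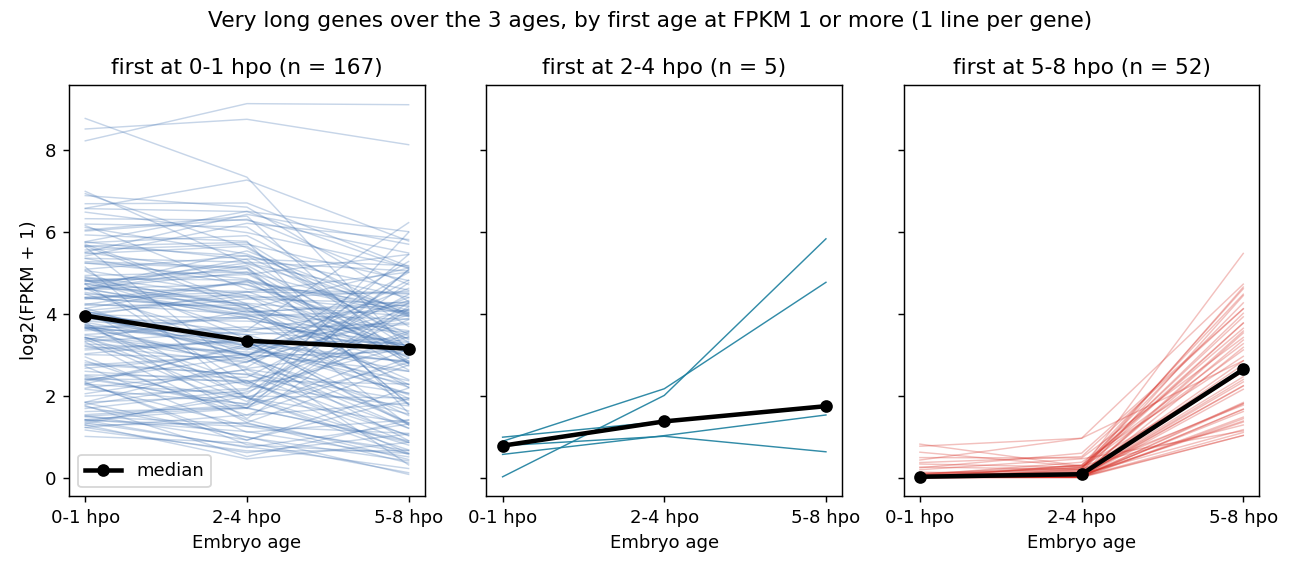
log2(FPKM + 1) of each very long gene (thin lines) at 0-1 hpo, 2-4 hpo and 5-8 hpo, in 3 panels by the age at which it first reached 1 FPKM, with the median as a thick line. By the grouping itself the 52 late genes lie below 1 on this scale until 2-4 hpo. They reach a median of 5.23 FPKM at 5-8 hpo. The 167 genes present at 0-1 hpo run from a median of 14.5 FPKM through 9.13 to 7.86. Shorter genes present at 0-1 hpo, not drawn, had medians of 33.9, 24.7 and 24.5 FPKM.

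Among the late genes, LOC105223293, on NW_011876271.1, minus strand, 284007 to 428527, had 2, 28 and 9718 reads at 0-1 hpo, 2-4 hpo and 5-8 hpo, or 0.00980, 0.144 and 43.4 FPKM. Its level at 5-8 hpo was 302-fold that at 2-4 hpo (209 to 454). LOC105228289, on NW_011876368.1, minus strand, 1270344 to 1438844, had 1, 86 and 24668 reads, and at 5-8 hpo stood at 24.1 FPKM, 249-fold its level at 2-4 hpo (202 to 312). Both were nearly silent at the earlier ages and well expressed at the last. LOC105225788, on NW_011876333.1, minus strand, 1022710 to 1127233, had 0, 5 and 7336 reads. Its 20.7 FPKM at 5-8 hpo was 1276-fold the level at 2-4 hpo (547 to 3931) and, against 3 reads at 0-1 hpo, at least 2227-fold higher. LOC105227501, on NW_011876358.1, plus strand, 1464203 to 1598628, had 0, 108 and 11393 reads and stood at 21.2 FPKM at 5-8 hpo, at least 3459-fold higher than at 0-1 hpo. It already had 108 reads at 2-4 hpo, at least 37.7-fold above 3 reads at 0-1 hpo, though at only 0.232 FPKM. LOC105223456, on NW_011876276.1, plus strand, 687815 to 833883, had 26, 56 and 10211 reads, and its 23.4 FPKM at 5-8 hpo was 159-fold the level at 2-4 hpo (122 to 210).

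Only 5 of the 224 genes first reached 1 FPKM at 2-4 hpo, and those with the highest values were higher again at 5-8 hpo. LOC105225921, on NW_011876336.1, minus strand, 89100 to 225213, had 3, 687 and 14632 reads, or 0.0126, 3.01 and 55.8 FPKM. Its level at 2-4 hpo was 240-fold that at 0-1 hpo (81.7 to 1166), and its level at 5-8 hpo a further 18.5-fold higher (17.2 to 20.03). LOC105226906, on NW_011876349.1, plus strand, 1293138 to 1449294, stood at 0.847, 3.49 and 26.2 FPKM, with steps of 4.12-fold (3.69 to 4.62) and 7.51-fold (7.12 to 7.92). In the other three, which did not reach 5 FPKM, values at 2-4 hpo were close to the threshold. LOC105233534 stood at 0.980, 1.59 and 2.35 FPKM, LOC105229909 at 0.479, 1.03 and 1.88 FPKM, and LOC105222575 at 0.714, 1.01 and 0.546 FPKM. None of the 224 genes had reached 5 FPKM by 2-4 hpo after starting under 1 FPKM in newly laid eggs, against 0.697% of shorter genes and 0.875% of all. Finding 0 of 224 allows a share of up to 1.34%, so it cannot be told from the share of shorter genes or of all genes.

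How far genes had come by 2-4 hpo was read from those below 0.1 FPKM at 0-1 hpo and at 5 FPKM or more at 5-8 hpo, a choice that does not use the value at 2-4 hpo. Among 23 such very long genes the level at 2-4 hpo was 0.0604% to 5.40% of that at 5-8 hpo, with a median of 0.949%. Among 276 shorter genes the median was 0.715%, so the typical gene of either kind stood near 1% of its later level. The sets differed in their upper tails: 40 of the 276 shorter genes, 14.5%, had reached 10% of their later level, and 32 of these were among the 145 genes under 5000 bases. None of the 23 very long genes had, which allows a share of up to 13.0%. In the classes between, 5.26% of 19, 7.32% of 41 and 5.63% of 71 genes had done so, from 50000 to under 100000 bases down to 5000 to under 20000.

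**Figure D4:**
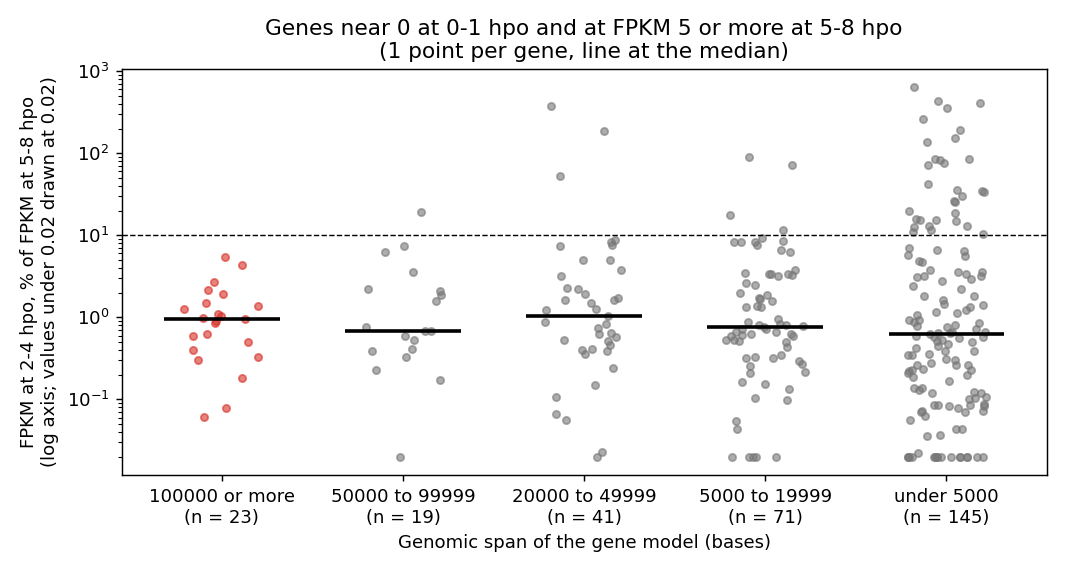
FPKM at 2-4 hpo as a percent of FPKM at 5-8 hpo (vertical log axis) for genes below 0.1 FPKM at 0-1 hpo and at 5 FPKM or more at 5-8 hpo, by gene span with the longest on the left; each point is a gene, thick lines are medians and the dashed line marks 10%. All 23 very long genes lie below 10%, while 32 of 145 genes under 5000 bases lie at or above it, and the medians are close, 0.949% and 0.624%.

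Differences between ages were counted on log2(FPKM + 1), which understates changes of low genes, over genes at 1 FPKM or more in either library of a pair. Between 2-4 and 0-1 hpo very long genes differed little. Of 172 compared, 0 were at least 4-fold higher at 2-4 hpo, against 1.51% of shorter genes and 1.72% of all genes compared. Finding 0 of 172 allows up to 1.74%. On FPKM itself, without the added 1, LOC105225921 was 240-fold and LOC105226906 4.12-fold higher. At least 4-fold lower on FPKM + 1 were 5, 2.91%, against 8.53% of shorter genes and 8.28% of all. At 2-fold the counts were 2 higher and 31 lower, 1.16% and 18.0%, against 5.55% and 23.5% of all genes, and 139 differed by less. The median log2 ratio was -0.23 for very long and -0.22 for shorter genes, and the genes past 4-fold made up smaller shares of the very long genes. The gap was smaller with a pseudocount of 0.1 in place of 1, where 12 very long genes were at least 4-fold lower, 6.98%, against 10.7% of shorter genes. On RPM there were 10, 5.81%, against 9.44% of shorter genes, and under either alternative 1 very long gene was at least 4-fold higher. With median-of-ratios scaling the median over all genes compared moved by 0.19 in this pair, and that of very long genes was -0.051.

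The lower levels at 2-4 hpo were led by LOC105224085, on NW_011876295.1, minus strand, 24583 to 231272. It stood at 34.2, 2.84 and 1.51 FPKM at the 3 ages, and its level at 2-4 hpo was 12.0-fold lower than at 0-1 hpo (11.0 to 13.2). LOC105231865, on NW_011876397.1, plus strand, 3954679 to 4057597, stood at 48.4, 4.84 and 2.71 FPKM and was 10.004-fold lower at 2-4 hpo (9.34 to 10.7). Both stayed low at 5-8 hpo. LOC105225696, spanning 374170 bases on NW_011876331.1, was also lower at each later age, at 15.8, 2.84 and 0.597 FPKM. The other two of the 5 had more transcript again in the oldest embryos. LOC105225710 stood at 12.9, 1.71 and 16.3 FPKM, 7.51-fold lower at 2-4 than at 0-1 hpo (6.87 to 8.23) and then 9.51-fold higher at 5-8 than at 2-4 hpo (8.70 to 10.4). LOC105231914 stood at 25.3, 3.85 and 13.4 FPKM. Of the 31 genes at least 2-fold lower at 2-4 hpo, 11 were at least 2-fold higher at 5-8 than at 2-4 hpo, 35.5%, against 49.0% of 1667 shorter genes and 48.5% of all genes at least 2-fold lower at 2-4 hpo.

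The 2 genes at least 2-fold higher at 2-4 hpo were those described above, LOC105225921 and LOC105226906. Next in size among genes at 5 FPKM or more in either library came LOC105223252, at 2.58, 6.10 and 14.6 FPKM, 2.37-fold higher at 2-4 than at 0-1 hpo (2.22 to 2.53). LOC105224283 stood at 3.88, 8.49 and 6.03 FPKM and was 2.19-fold higher (2.06 to 2.32). These ratios pass 2-fold on FPKM but not on FPKM + 1. By FPKM + 1 the next were LOC105229164 (1.92-fold on FPKM), the abundant LOC105223317 (1.88-fold) and LOC105230123 (1.90-fold), all under 2-fold. On FPKM itself LOC105224934 stood before these, at 4.09, 8.15 and 4.15 FPKM, 1.99-fold higher at 2-4 than at 0-1 hpo (1.86 to 2.13).

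**Figure D5:**
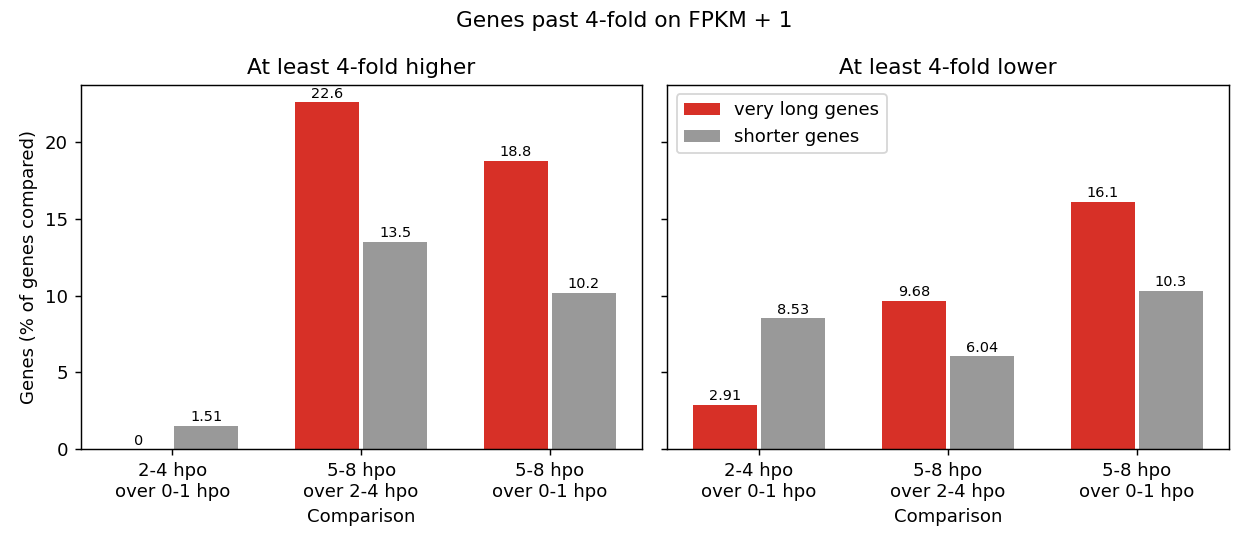
Percent of genes compared (vertical axis) at least 4-fold higher (left panel) or lower (right panel) on FPKM + 1 in 3 comparisons between ages, for very long and shorter genes. Very long genes have the smaller bars at 2-4 over 0-1 hpo (0% and 2.91%, the second being 6.98% against 10.7% in shorter genes with a pseudocount of 0.1) and the larger bars in both comparisons with 5-8 hpo, up to 22.6% higher and 16.1% lower.

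Between 5-8 and 2-4 hpo very long genes differed more often than shorter genes, in both directions. Of 217 compared, 49 were at least 4-fold higher at 5-8 hpo, 22.6%, against 13.5% of shorter genes and 13.8% of all. At least 4-fold lower were 21, 9.68%, against 6.04% of shorter genes and 6.30% of all. With a 2-fold rule 83 genes were higher and 59 lower, 38.2% and 27.2%, against 30.3% and 21.1% of all. The medians differed in sign, at -0.05 in very long and 0.10 in shorter genes, and did so too with median-of-ratios (-0.09 and 0.07) and TPM scaling (-0.09 and 0.06). The sign did not hold among genes that overlap no other model, where the medians were 0.26 in 125 very long genes and 0.10 in 5598 shorter genes. Besides the late genes, LOC105225098, on NW_011876320.1, minus strand, 100472 to 384216, was already present in eggs. It stood at 3.45, 2.48 and 62.5 FPKM, 25.2-fold higher at 5-8 than at 2-4 hpo (23.5 to 26.97).

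The genes lower at 5-8 than at 2-4 hpo that are named here were ranked on FPKM + 1, which favours abundant transcripts. LOC105223795 was 21.1-fold lower than at 2-4 hpo (20.1 to 22.1). LOC105229728, on NW_011876383.1, plus strand, 59534 to 365489, stood at 59.7, 53.5 and 1.96 FPKM, and was 27.2-fold lower at 5-8 than at 2-4 hpo (24.9 to 29.9). Little of its transcript had gone by 2-4 hpo and nearly all by 5-8 hpo. LOC105224624 stood at 64.9, 82.5 and 5.83 FPKM, 14.2-fold lower at 5-8 than at 2-4 hpo (13.5 to 14.9). LOC105227241, at 37.6, 34.2 and 2.45 FPKM, was 14.0-fold lower (12.6 to 15.5), and LOC105225008, at 26.7, 33.2 and 2.47 FPKM, 13.5-fold lower (12.0 to 15.1). In these last 4 genes the level at 2-4 hpo lay within 1.27-fold of that at 0-1 hpo, in either direction. By the ratio of FPKM itself, LOC105231772, picked after its values were seen, stood further down than all of them. Its levels were 10.1, 7.05 and 0.237 FPKM, 29.7-fold lower at 5-8 than at 2-4 hpo (24.6 to 36.2).

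Between 5-8 and 0-1 hpo 42 of 223 very long genes were at least 4-fold higher, 18.8%, against 10.2% of shorter genes and 10.8% of all. At least 4-fold lower were 36, 16.1%, against 10.3% of shorter genes and 10.4% of all. At 2-fold the counts were 72 higher and 70 lower, 32.3% and 31.4%, against 23.8% and 27.2% of all. The medians were -0.25 in very long and -0.19 in shorter genes. Among genes that overlap no other model they were 0.14 in 125 very long genes and -0.20 in 5614 shorter genes, so the direction for very long genes turned. Furthest below its level in eggs was LOC105223795, 57.3-fold lower at 5-8 than at 0-1 hpo (54.6 to 60.0). LOC105231772 was 42.6-fold lower (35.3 to 51.8) and LOC105229728 30.4-fold lower (27.7 to 33.3). LOC105225332, on NW_011876325.1, minus strand, 759571 to 1010182, stood at 121, 47.8 and 9.29 FPKM and was 13.0-fold lower at 5-8 than at 0-1 hpo (12.4 to 13.7). The 3 comparisons share libraries and are not independent of each other.

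For very long genes at least 4-fold lower at the end than at the start, most of the difference lay after 2-4 hpo. Of these 36 genes, 11 were at least 2-fold lower at 2-4 than at 0-1 hpo, and 33 were at least 2-fold lower at 5-8 than at 2-4 hpo. These counts are given for very long genes alone, so they do not set them apart from shorter genes. At 2-4 hpo the 36 genes held a median of 66.6% of their level at 0-1 hpo (quartiles 36.4% and 85.4%). In 787 shorter genes it was 47.5% (quartiles 23.1% and 81.6%). Of the 36, 25 still held 50% or more, 69.4%, against 48.4% of the shorter genes. The median did not follow span evenly: it was 59.7% for 39 genes of 50000 to under 100000 bases, 37.5% for 95 of 20000 to under 50000, 41.6% for 196 of 5000 to under 20000 and 51.6% for 457 under 5000 bases.

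By the course over the ages, 69 very long genes were lower at each later age, 30.8%, against 24.7% of shorter genes and 24.6% of all. Higher at each later age were 55, 24.6%, against 19.5% of shorter genes and 20.1% of all. Values were lowest at 2-4 hpo in 50 genes, 22.3%, against 31.8% of shorter genes and 31.2% of all, and highest there in 48, 21.4%, against 22.8% and 22.8%. A dip at 2-4 hpo was thus less frequent, and a course in 1 direction more frequent, among these very long genes than among shorter ones. The rising course overlaps the late genes, as 38 of those 52 had higher RPM at 2-4 than at 0-1 hpo. Its median levels were 0.0405, 0.177 and 8.62 FPKM in very long genes, against 3.25, 8.06 and 28.8 FPKM in shorter genes. In very long genes the first step of that course thus often lay at very low levels. Shares of this course without the late genes are not given. Less than 2-fold change between any pair of ages was seen in 61 genes, 27.2%, against 33.2% of shorter genes and 32.5% of all. At 1 FPKM or more at all 3 ages were 141 of the 224, 62.9%, against 81.8% of shorter genes and 79.7% of all. Present at 0-1 hpo and below 1 FPKM at 5-8 hpo were 21, 9.38%, against 4.18% of shorter genes and 4.56% of all.

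The 6 longest genes did not share a course. LOC105231878, on NW_011876397.1, minus strand, 4545531 to 5036489, spans 490959 bases and stood at 14.2, 6.91 and 20.01 FPKM, lowest at 2-4 hpo. LOC105229164, of 477566 bases on NW_011876378.1, stood at 44.3, 85.0 and 50.8 FPKM, highest at 2-4 hpo. LOC105228487, of 475727 bases, was nearly level at 5.36, 7.09 and 5.03 FPKM. LOC105231691, of 456684 bases, stood at 39.7, 25.04 and 9.51 FPKM, lower at each later age. Late genes made up the other two: LOC105224376, of 444370 bases, stood at 0.0136, 0.0255 and 5.10 FPKM, and LOC105224504, of 428479 bases, at 0.0279, 0.0262 and 2.06 FPKM. LOC105224376 had 14, 25 and 5751 reads, its level at 5-8 hpo being 200-fold that at 2-4 hpo (135 to 309). Across the 224 genes, Spearman's rho of span with the log2 ratio was 0.03 for 2-4 over 0-1 hpo, 0.01 for 5-8 over 2-4 hpo and 0.02 for 5-8 over 0-1 hpo, as a description across genes that share these libraries.

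Other models often lay inside these genes. A model lay wholly within the span of 87 of the 224 genes. This gave 153 pairs of host and nested model, 95 of them on opposite strands. Model 105226905 was counted in both 109579587 and LOC105226906. Of the 224 genes, 98 overlapped some other model. Among genes compared between 5-8 and 2-4 hpo, 125 of 217 very long and 5598 of 7669 shorter genes overlapped no other model. Of the 153 nested models, counted once per host, 114 stayed below 1 FPKM at all ages. At 0-1 hpo 31 were at 1 FPKM or more, while 3 came first at 2-4 hpo and 5 at 5-8 hpo. For comparison, 61% of all 13489 gene models reached 1 FPKM at any age. The nested models included entries of only 72 bases, and all of them share positions with a host gene. The shares are therefore not of like sets, and do not set nested models apart. The 29 models inside late genes included 4 present at 0-1 hpo and 3 first seen at 5-8 hpo. No strand setting of the counting is stated in the labels, so reads of a gene and of an overlapping model cannot be told apart in full. Among the 126 very long genes that overlap no model, 27.8% were first at 5-8 hpo, against 23.2% of all 224. This share is not given for shorter genes without overlaps.

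Overlapping very long genes could differ in their course, as did the 2 such pairs, which were picked after their values were seen. LOC105226906, at 0.847, 3.49 and 26.2 FPKM, overlaps gene 109579587 on the opposite strand, at 2.32, 0.994 and 0.0552 FPKM. LOC105232123, on NW_011876398.1, plus strand, 3133136 to 3286471, stood at 3.85, 3.11 and 26.0 FPKM. The noncoding gene LOC109579954, on the minus strand within it, stood at 7.004, 6.59 and 2.08 FPKM. In each pair 1 gene was highest and the other lowest at 5-8 hpo. Of the other three noncoding genes, LOC105231011 was highest at 5-8 hpo, at 4.68, 4.45 and 21.2 FPKM, while LOC109579642, at 1.01, 0.804 and 0.0850 FPKM, and LOC105229435, at 3.79, 1.39 and 1.11 FPKM, were highest in newly laid eggs. Next to each other on NW_011876288.1 lay the egg transcript LOC105223795 and the late gene LOC105223796, at 0.00891, 0.0560 and 6.22 FPKM. The neighbours 105229654 and LOC105229710 on NW_011876382.1 were alike in being present at 0-1 hpo and lowest at 5-8 hpo. They stood at 11.7, 9.07 and 1.44 FPKM and at 43.2, 49.2 and 7.98 FPKM. Of these 4 adjacent pairs, the overlapping ones included, 2 shared the age at which they first reached 1 FPKM.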

How the data were processed

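Total RNA from embryos of 3 ages was selected on poly-T beads and sequenced, per the labels' protocols, with 1 library per age, so values also depend on poly-A tails. HISAT2 2.0.4 and HTSeq 0.9.1 were used, per the submitters' processing notes; their roles and settings, and the build and annotation behind the tables, are not stated in the labels. Deposited count tables gave whole-number read counts, position and exonic length for each gene. FPKM values, so named by the authors, were taken as deposited. Set against the counts, 40.2% of the very long genes had been scaled to a length over 0.1% shorter than the listed one (0.459 to 1 times it), against 26.3% of shorter genes with another length, so levels depend on the length used and ratios between ages do not. Coordinates are those of the deposited tables.

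Span was end minus start plus 1. Folds of single genes are ratios of FPKM with exact conditional binomial 95% intervals of the counts, and with 0 reads a bound against 3 reads, which cover counting error only. A gene with 0 reads could stand at up to 0.0401 to 0.0461 RPM in the 3 libraries. No paired or replicate test exists with 1 library per age. The members, gene lists and rules were chosen with earlier results of these data known. Genes named are the 6 longest, the 5 largest rises and falls on log2(FPKM + 1) in each comparison at 5 FPKM or more in either library, the 3 most abundant at each age, and those first at 2-4 hpo that reach 5 FPKM; not every one of these is described. The other three genes first at 2-4 hpo, LOC105231772, LOC105224934, the noncoding, overlapping and neighbouring genes and those at the edge of the span rule were added after their values were seen. None of the gene lists written for this work matched a member by name, and promoter motifs were not analysed here. Alternatives were a pseudocount of 0.1, other filters, spans, scalings (TPM, RPM, median-of-ratios, FPKM recomputed from counts) and genes without overlaps. Python 3.11.15, pandas 2.3.3 and scipy 1.17.1 were used, and the procedures were tested on simulated counts.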

Additional observations from a re-analysis of the deposited data

How the results depend on the processing

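Of 147 values computed for 18 results under alternatives, 102 stayed within 1.5 times a count or within the 95% binomial interval of a share or median, and 45 did not. Many of those follow from the number of genes entering. With spans from 50000 bases, the genes at least 4-fold higher and lower were 2 and 18 at 2-4 over 0-1 hpo, 96 and 48 at 5-8 over 2-4 hpo, and 84 and 75 at 5-8 over 0-1 hpo. With spans from 200000 bases there were 2 lower, 16 higher and 9 lower, and 14 higher and 15 lower. Without genes that overlap a model there were 1 lower, 30 higher and 12 lower, and 26 higher and 19 lower. At 2-4 over 0-1 hpo a pseudocount of 0.1, TPM, median-of-ratios and RPM each gave 1 higher gene in place of 0. A pseudocount of 0.1 gave 12 lower genes there in place of 5, and 37 in place of 21 at 5-8 over 2-4 hpo, and RPM gave 10 and 34; the cause was not tested.

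The median log2 ratio at 2-4 over 0-1 hpo, -0.23, was -0.017 without a filter and -0.051 with median-of-ratios scaling. Without genes that overlap a model, the medians at 5-8 over 2-4 hpo and 5-8 over 0-1 hpo turned to 0.26 and 0.14, in place of -0.05 and -0.25; the cause was not tested. At 1 RPM the late share was 17.5% in place of 23.2% in very long genes and 7.67% in place of 10.1% in shorter genes, of which 89.4% in place of 87.1% were first at 0-1 hpo. Among shorter genes with exonic length within the quartiles of the very long ones, 90.0%, 1.65% and 8.32% were first at 0-1 hpo, 2-4 hpo and 5-8 hpo, in place of 87.1%, 2.80% and 10.1%. With highest FPKM within those quartiles 2.01% were first at 2-4 hpo. By highest FPKM of the very long genes, 1 to under 5 gave 46.0%, 6% and 48.0%, 5 to under 20 gave 0% at 2-4 hpo, and 20 or more gave 91.1% at 0-1 and 6.67% at 5-8 hpo. Both groupings by FPKM, and all alternatives run in shorter genes other than by exonic length, were added after seeing the data. Median levels of 8.45, 5.29 and 7.34 FPKM were 0.204, 0.296 and 1.43 without the 1 FPKM filter, and 16.2, 9.47 and 12.8 on the TPM scale by its construction. No paired analysis was possible because no age had a second library.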

Other observations

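The 157 numbered genes of 100000 bases or more that stayed below 1 FPKM at all ages had medians of 3, 6 and 12 reads at 0-1 hpo, 2-4 hpo and 5-8 hpo, and 10 had no read at any age. Of the 157, 26, 29 and 55 stood at 0.1 FPKM or more at the 3 ages, and 74 had their highest RPM at 5-8 hpo. Models without a gene number included 2 of 100000 bases or more. Novel00266, of 108424 bases on NW_011876311.1, had 221, 128 and 67 reads and stood at 3.30, 2.00 and 0.911 FPKM. Novel00365, of 142171 bases on NW_011876399.1, had 426, 320 and 95 reads and stood at 3.36, 2.64 and 0.683 FPKM. Both were lower at each later age.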
